A study of Mus musculus with 294 samples.

Results

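Sarcomere genes were followed in single cells of the cardiac neural crest of the mouse embryo. The members were 9 named rows of the deposited raw count table: Tnnt2, Tnni1, Tnni3, Actc1, Myh6, Myh7, Myl7, Ttn and Nppa. They were 9 of 15124 genes in that table, and all 9 had a row there. Values are in CPM, the reads of a gene per 1000000 reads of its cell, and a cell counts as holding a gene from 10 CPM upwards.

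All 294 cells came from the outflow tract of the heart of Wnt1-Cre; R26-EYFP embryos at embryonic day 17.5, 14.5, 12.5 or 11.5, were sorted for EYFP and captured singly on Fluidigm C1 chips. Wnt1-Cre switches on the EYFP reporter in precursors of the neural crest, and the reporter then stays on in their descendants, so it marks where a cell came from and not what it is. No treatment was given, and the labels name no stage, animal or chip for a single cell. The 294 cells were therefore 1 group and 1 sample, with no replicate and no test between conditions. Cells are also given by the first digit of their name, 1 to 7, as name series, and the labels do not say what that digit stands for.

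The sarcomere is the contractile unit of striated muscle, in which thick filaments of myosin pull on thin filaments of actin. Troponin and tropomyosin on the thin filament let calcium switch contraction on, and titin spans the unit as a spring. Cardiac neural crest cells enter the outflow tract, help to divide it into aorta and pulmonary trunk, and are best known there for giving rise to smooth muscle and mesenchyme rather than heart muscle. Nppa, which encodes the atrial natriuretic peptide, is a product of heart muscle cells and not a sarcomere protein.

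In 2 cells, named C722 and C755, sarcomere genes were high, and the interest here lies in the other 292 cells. In those 292 cells, 3 members were common at low or intermediate levels: Tnni1 in 36.6% of cells, Tnnt2 in 18.8% and Actc1 in 15.8%. The other 6 were detected in 0.685% to 3.42% of cells. Cells with 3 or more members were few, 11 of 292 (3.77%, exact Clopper-Pearson 95% interval 1.90% to 6.64%). These intervals allow for counting error alone, and reads are not separate molecules, since no molecular identifiers were used.

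The total count per cell ran from 34046 to 3033857 reads, with a median of 1204543. C722 had 1248649 reads and C755 had 1845417, so that 137 and 60 cells were deeper. Cells of series 1 had a median of 7718 genes with a read, against 3123 to 4676.5 in the other series. In series 1, 22.0% of all gene and cell entries held a read but lay under 10 CPM, against 3.55% to 6.71% elsewhere. Reads below 10 CPM in series 1 are therefore given apart for each gene they touch.

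The sequences just upstream of 4 members are shown because these genes were the 3 common members and the most frequent of the rare ones. They are RefSeq windows on GRCm38.p6, from 250 to 21 bases before the start of transcription, and all 9 members were found in that table. The strand is plus for Tnnt2 (chr1:135836084-135836313) and Tnni1 (chr1:135799171-135799400), and minus for Actc1 (chr2:114052896-114053125) and Myl7 (chr11:5898803-5899032). No window overlapped an exon of GENCODE M21. Those of Actc1 and Tnni1 lay in an intron of a longer transcript of the same gene. Tnnt2 and Tnni1 each had 2 windows, of which the upstream one is printed. Capitals mark matches on either strand to TATAAA (the TATA box), GATAAG (bound by GATA factors), CATTCC (bound by TEAD factors), the CArG box (bound by SRF) or the MEF2 site.
Tnnt2: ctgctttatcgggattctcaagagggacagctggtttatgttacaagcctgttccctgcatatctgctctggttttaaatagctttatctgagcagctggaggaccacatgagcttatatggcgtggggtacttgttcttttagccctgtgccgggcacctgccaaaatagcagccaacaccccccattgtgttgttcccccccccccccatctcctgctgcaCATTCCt
Tnni1: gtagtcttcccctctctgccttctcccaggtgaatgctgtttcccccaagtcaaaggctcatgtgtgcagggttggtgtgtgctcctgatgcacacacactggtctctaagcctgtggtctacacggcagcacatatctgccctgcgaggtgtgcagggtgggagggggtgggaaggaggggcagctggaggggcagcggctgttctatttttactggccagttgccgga
Actc1: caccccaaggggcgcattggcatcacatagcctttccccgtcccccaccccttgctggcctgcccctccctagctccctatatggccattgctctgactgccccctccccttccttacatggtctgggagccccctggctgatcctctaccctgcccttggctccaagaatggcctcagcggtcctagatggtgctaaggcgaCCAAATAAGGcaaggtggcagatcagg
Myl7: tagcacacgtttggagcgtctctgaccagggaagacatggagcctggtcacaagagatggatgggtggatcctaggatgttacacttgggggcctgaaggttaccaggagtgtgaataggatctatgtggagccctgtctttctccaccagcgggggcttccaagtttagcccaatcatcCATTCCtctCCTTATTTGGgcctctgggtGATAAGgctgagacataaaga
In the Tnnt2 window the only match was CATTCC, from base -27 to -22 counted from the start of transcription. In the Actc1 window it was a CArG box, from -47 to -38. The Myl7 window held CATTCC at -70 to -65, a CArG box at -61 to -52 and GATAAG at -41 to -36. None of these motifs was in the Tnni1 window, which says only that these letters are not in these 230 bases. Of all 32851 windows of the same length, 11.8% held CATTCC, 1.41% a CArG box, 6.16% GATAAG, 2.75% a MEF2 site and 11.8% TATAAA. A match is a description of the letters and not of a factor bound there.

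C722 and C755 both lay in series 7. The 9 members took 4.76% of all reads in C722 and 2.39% in C755, against a median of 0.00423% and a highest value of 0.354% in the other cells. For 8 of 9 members both cells lay above every other cell, against 0.212% of all genes in the table. All 9 members had a mean in these cells at least 10-fold above the mean of the others, with 10 CPM added to both means, against 0.344% of all genes. The rule sets these cells apart for their sarcomere genes, so these counts describe the choice and are no evidence for it.

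The exception was Nppa, at 0 CPM in C722 and 235.2 CPM in C755. The 2 cells also differed in proportions: Actc1 made up 56.2% of the members' reads in C722 and 36.7% in C755. Myl7, the atrial regulatory light chain, was 7346 CPM in C722 and 1065 CPM in C755. Myh6, the alpha myosin heavy chain, was 239.5 CPM in C722 and 990.6 CPM in C755. Myh7, the beta heavy chain, was 1487 CPM and 2302 CPM in the same order.

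**Figure D1:**
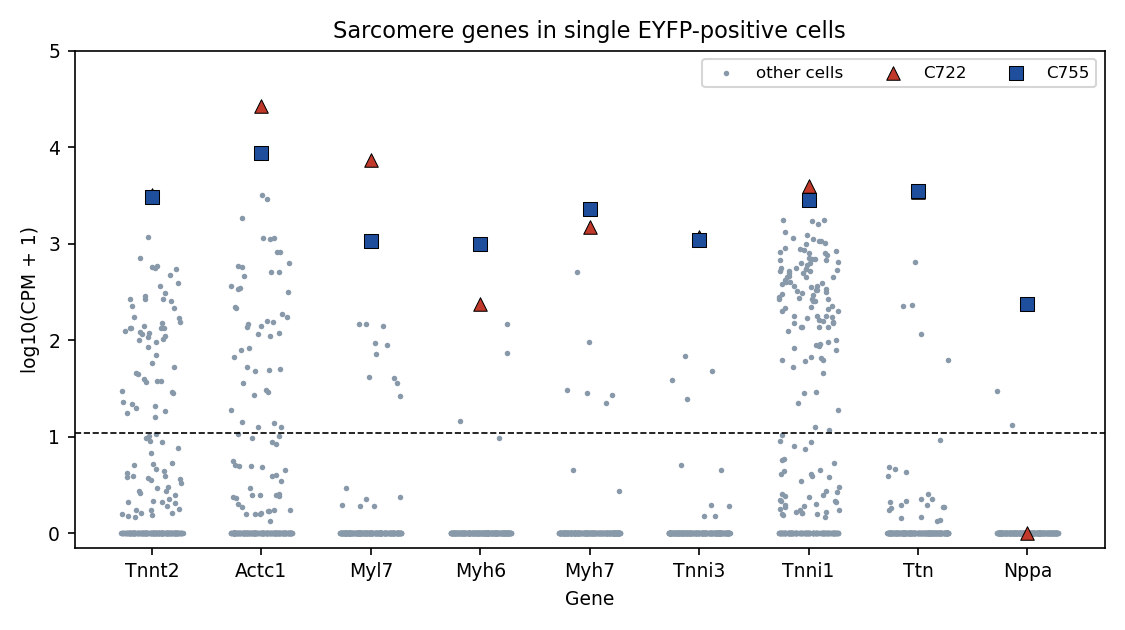
Level of each of the 9 members in each cell, as log10(CPM + 1), with 1 grey point per cell for 292 cells, a triangle for C722 and a square for C755. The dashed line marks 10 CPM; the common members Tnnt2, Actc1 and Tnni1 fill the range between it and the 2 marked cells, and the other 6 are mostly at 0.

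Among the thin filament genes, Tnni1, the slow skeletal troponin I that the embryonic heart also uses, was the most widespread member. The gene lies on the plus strand of chromosome 1 at 135779434 to 135810989 (GENCODE M21, GRCm38, as for all members), 25364 bases before Tnnt2. It had a read in 50.7% of the 292 cells and reached 10 CPM in 107 (36.6%, 31.1% to 42.5%), 100 CPM in 88 and 1000 CPM in 11. In the 107 cells the lowest value was 10.9 CPM, the median 333.1 and the highest 1782, in C552. The highest cell held less than C755 at 2829 CPM and C722 at 3946 CPM, but this was the smallest gap to the 2 cells among the 8 members that separated them from all other cells. The lower of the 2 cells was 1.59 times the highest other cell.

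Tnni1 varied more between name series than the other members. It was detected in 5 of 58 cells of series 1 (8.62%, 2.86% to 19.0%) and 2 of 48 of series 2 (4.17%, 0.509% to 14.3%). It was detected in 10 of 38 cells of series 3 (26.3%), 23 of 38 of series 4 (60.5%) and 22 of 34 of series 5 (64.7%). In series 6 it was 15 of 34 cells (44.1%), and in series 7 it was 30 of 42 (71.4%, 55.4% to 84.3%). The intervals of series 1 and 2 did not meet those of series 4, 5, 6 and 7. The spread of 67.3 percentage points between the highest and lowest series compares with a median of 26.2 points over 8828 genes. A spread of 50 points or more was found in 6.64% of those genes and in 1 of the 3 members among them. Depth did not move this pattern by much: after every cell was thinned to 286313 reads, the shares ran 7.84%, 5.26%, 26.5%, 62.9%, 65.5%, 47.1% and 73.2% from series 1 to 7, with 30 shallower cells left out.

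The level of Tnni1 over all cells of a series also varied. In series 7 the median over all 42 cells was 188.3 CPM, in series 5 it was 177.7 CPM and in series 4 it was 137.6 CPM. In series 1 the median was 0.747 CPM, since 38 of 58 cells held a read but 5 reached 10 CPM. In series 2, 3 and 6 the median was 0. As a mean, the other cells of series 5 reached 11.9% of the mean of C722 and C755, and those of series 7 reached 9.99%. In series 1 and 2 the same figure was 0.147% and 0.190%, and it rested mostly on 1 cell each, being 0.0722% without C132 and 0.0355% without C236, a check added after the data were seen.

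Tnnt2, the cardiac troponin T that ties troponin to tropomyosin, showed another distribution (chr1:135836354-135852260, plus strand). It had a read in 96 of 292 cells and reached 10 CPM in 55 (18.8%, 14.5% to 23.8%) and 100 CPM in 33. The lowest of the 55 values was 15.2 CPM, the median 121.5 and the highest 1164, in C711, the one cell above 1000 CPM. C711 was among the shallow cells, with 114281 reads, and still stood 2.65 times below the lower of C722 and C755. No other cell overlapped with those 2.

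By series, Tnnt2 was most frequent in series 1 and 2, where Tnni1 was rare. It was detected in 21 of 58 cells of series 1 (36.2%, 24.0% to 49.9%) and 10 of 48 of series 2 (20.8%, 10.5% to 35.0%). In series 3 to 6 it was detected in 6, 5, 2 and 3 cells, and in series 7 in 8 of 42 (19.0%, 8.60% to 34.1%). The interval of series 1 stood apart from that of series 5 (0.720% to 19.7%) and series 6 (1.86% to 23.7%) and met the others. Of the 58 cells of series 1, 52 held a Tnnt2 read, with a median of 3.32 CPM. At 100 CPM the shares of series 1 and 2 were close, 10 of 58 cells and 9 of 48. After thinning, the share in series 1 was 33.3%.

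Actc1, the cardiac alpha actin of the thin filament, reached the highest levels outside the 2 cells (chr2:114047282-114053548, minus strand). It had a read in 79 cells and reached 10 CPM in 46 (15.8%, 11.8% to 20.4%), 100 CPM in 30 and 1000 CPM in 6. The lowest of the 46 values was 11.6 CPM, the median 156.5 and the highest 3212, in C674. C755 with 8763 CPM was 2.73 times the highest other cell, and C722 held 26720 CPM.

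By series, Actc1 was detected in 14 of 38 cells of series 4 (36.8%, 21.8% to 54.0%) and 14 of 42 of series 7 (33.3%, 19.6% to 49.5%). It was detected in 4 of 58 cells of series 1 (6.90%, 1.91% to 16.7%), 3 of 48 of series 2 (6.25%, 1.31% to 17.2%), 6 of 34 of series 5 and 5 of 34 of series 6. Series 3 had 0 of 38 cells, and its highest Actc1 value was 1.43 CPM. The intervals of series 4 and 7 did not meet those of series 1 or 2 and met those of series 5 and 6. No 50-base window of Actc1 transcripts occurred in another gene.

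Tnni3, the cardiac troponin I that replaces Tnni1 in the maturing heart, was rare (chr7:4518305-4524229, minus strand). It reached 10 CPM in 4 of 292 cells (1.37%, 0.374% to 3.47%), at 23.6 CPM in C365, 37.6 in C713, 47.3 in C205 and 67.9 in C666. C755 with 1086 CPM stood 16.0 times above the highest of them, the widest gap of the 8 members. Per kilobase of exon, Tnni1 and Tnni3 stood at 1096 and 574.5 CPM in C722 and at 786 and 526.6 CPM in C755, while 107 and 4 of the other cells held them. Of the Tnni3 exon bases, 4.17% are shared with Dnaaf3 on the same strand.

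**Figure D2:**
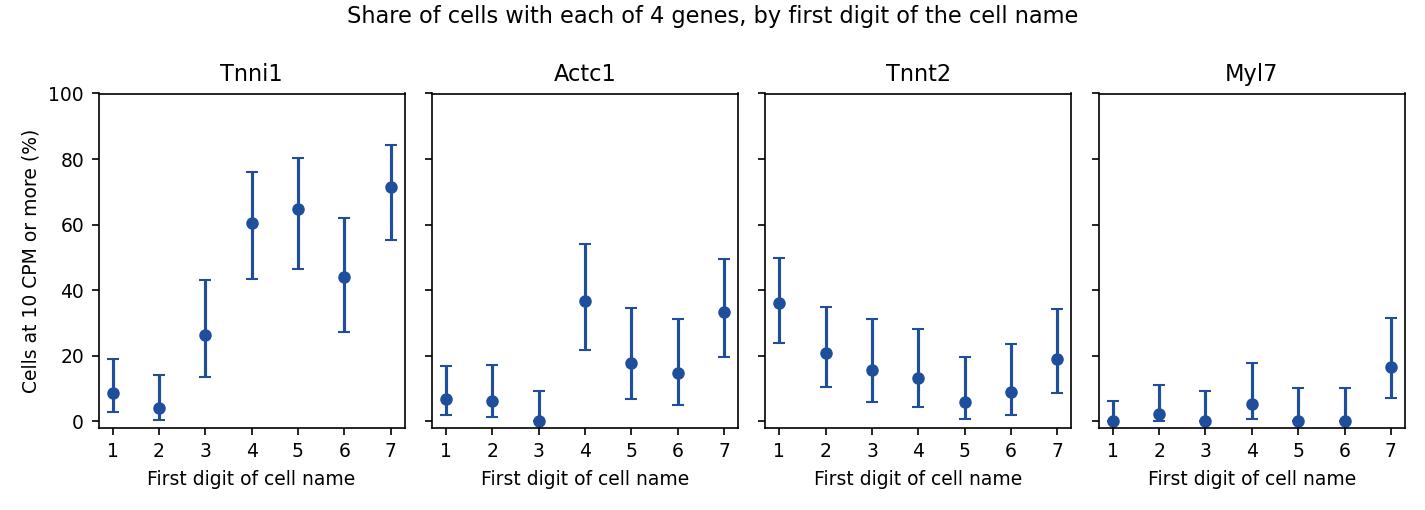
Share of cells at 10 CPM or more, in percent, for Tnni1, Actc1, Tnnt2 and Myl7 by first digit of the cell name, without C722 and C755. Points are shares and bars exact Clopper-Pearson 95% intervals over 34 to 58 cells; Tnni1 runs from 4.17% in series 2 to 71.4% in series 7, and Tnnt2 is highest in series 1 at 36.2%.

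Among the thick filament genes, the heavy chains Myh6 and Myh7 were rare in the 292 cells. Myh6 reached 10 CPM in 3 cells (1.03%, 0.212% to 2.97%), at 13.5 CPM in C567, 73.2 in C205 and 146.4 in C626. Myh7 reached it in 6 cells (2.05%, 0.758% to 4.42%), 2 of series 1, 3 of series 2 and 1 of series 6. Its 6 values were 21.4 CPM in C163, 25.9 in C205, 27.6 in C189, 29.4 in C278, 96.0 in C210 and 508.1 in C626. The value of C278 rests on 1 read of 34046. Both heavy chains had 0 reads in the other 42 cells of series 7, the series of C722 and C755.

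C205 and C626 held both heavy chains, against a product of the shares within series that gives 0.0919 cells. The genes lie side by side on chromosome 14, Myh6 at 54941921 to 54966927 and Myh7 at 54970684 to 54994626, both on the minus strand with 3756 bases between them. Of the 50-base windows of Myh6 transcripts, 20.2% also occur in another gene, mostly Myh7, and for Myh7 the share is 15.6%. How the counting treated such reads was not given in the sources used here, so the split between these genes within a cell is uncertain. Mhrt, an RNA on the opposite strand, overlaps 5.62% of the Myh7 exon bases and Gm31251 overlaps 6.07%. Whether strand was used in counting was not given either.

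Myl7 was the most frequent of the 6 rare members (chr11:5896637-5898782, minus strand). It reached 10 CPM in 10 of 292 cells (3.42%, 1.65% to 6.21%), and 7 of these were among the 42 other cells of series 7 (16.7%, 6.97% to 31.4%). The others were 2 cells of series 4 and 1 of series 2, and series 1 with 58 cells had no Myl7 read at all. The lowest of the 10 values was 25.2 CPM, the median 80.0 and the highest 147.2, in C770. C755 held 7.24 times that highest value. The mean of the other cells of series 7 was 15.3 CPM, which is 0.365% of the mean of C722 and C755. Without series 7 the share of cells with Myl7 fell to 1.20%.

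Other myosin light chains were also found in series 7. Myl2, the ventricular regulatory light chain, was detected in 12 cells, 9 of them in series 7. Myl3, the ventricular essential light chain, was detected in 8 cells, 5 of them in series 7, and Myl4, the atrial and embryonic essential light chain, in 17, with 7 in series 7. At least 1 of Myl7, Myl2, Myl3 and Myl4 was detected in 19 of 42 cells of series 7, and in 6, 5, 1, 4, 0 and 1 cells of series 1 to 6. Of the 10 cells with 2 or more light chains, 8 were in series 7. Of the 10 cells with Myl7, 1 also had Actc1 and 0 had Tnnt2, while 6 had Tnni1. In the other cells of series 7, Tnni1 had a mean at 9.99% of that in C722 and C755, Tnnt2 at 1.49%, Actc1 at 0.780% and Myl7 at 0.365%. The Tnnt2 figure rested on the shallow cell C711 and was 0.621% without it, a check added after the data were seen, so the order of Tnnt2 and Actc1 turned on 1 cell. The 2 cells themselves differed widely, in Actc1 at 26720 and 8763 CPM and in Myl7 at 7346 and 1065 CPM. The spacing of Tnnt2, Actc1 and Myl7 thus also depended on which of the 2 cells was the reference. The proportions differed from both cells mainly in Tnni1. It gave 66.8% of the member reads in these cells, against 8.30% in C722 and 11.9% in C755.

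Ttn, which encodes titin (chr2:76703980-76982547, minus strand), had a read in 25 cells but reached 10 CPM in 5 (1.71%, 0.558% to 3.95%). Its 5 values were 61.6 CPM in C436, 114.5 in C221, 228.1 in C790, 231.7 in C511 and 640.8 in C568. C568 held Ttn with Tnni1 at 82.4 CPM and no read of the other 7 members. In C722 and C755 Ttn was 3430 and 3500 CPM, so no cell was near them.

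Nppa (chr4:148000722-148002079, plus strand) was the rarest, at 12.3 CPM in C225 and 28.7 CPM in C208 (2 of 292 cells, 0.685%, 0.0831% to 2.45%). Both cells belong to series 2, and neither held another member at 10 CPM. Gm13054 on the opposite strand overlaps 61.5% of the Nppa exon bases, so reads of the pair cannot be told apart if strand was not used.

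Only 3 of the 9 members reached 10 CPM in at least 10% of the 292 cells, against 58.4% of all genes in the table. The median gene was detected in 14.7% of cells. Without regard to length, the mean levels over the 292 cells were 164.3 CPM for Tnni1, 69.3 for Actc1, 36.3 for Tnnt2 and 2.85 for Myl7. Per kilobase of exon they were 45.7 CPM for Tnni1, 42.8 for Actc1, 4.83 for Myl7 and 4.69 for Tnnt2. The length was that of all annotated exons together, 3600 bases for Tnni1, 1618 for Actc1, 590 for Myl7 and 7752 for Tnnt2. Genes with exons that these cells did not use come out too low, and which transcripts were present was not examined. The other 5 lay between 0.0385 CPM per kilobase for Ttn and 0.310 for Tnni3. On the same scale C722 had 16514 CPM per kilobase of Actc1, 12450 of Myl7 and 1096 of Tnni1, and C755 had 5416, 1806 and 786. By this length Actc1 and Tnni1 were close to each other in the 292 cells, while Actc1 was far above Tnni1 in the 2 cells. Without regard to length, Tnni1 had the higher mean in the 292 cells and Actc1 the higher level in C722 and C755.

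Reads of the members were made up differently in each series. In series 1, Tnnt2 gave 80.8% of the 5747 member reads, and in series 2 it gave 68.8% of 4581. In series 5, Tnni1 gave 82.6% of 17880 reads and in series 6 it gave 42.8% of 19776. Actc1 gave 47.9% in series 6, but C674 alone held 7591 of its 9482 reads there. Without C674, a check chosen after the data were seen, Actc1 gave 15.5% and Tnni1 69.5%. In series 7 without the 2 cells, Tnni1 gave 66.8% of 25436 reads, Actc1 25.1% and Tnnt2 3.61%.

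Most cells with a member held just 1. No member was detected in 123 of 292 cells (42.1%), 1 member in 113 (38.7%), 2 in 45 (15.4%), 3 in 10 (3.42%) and 5 in 1 cell. C722 held 8 members and C755 held 9. Tnni1 alone was found in 57 cells, Tnnt2 alone in 28 and Actc1 alone in 16. Tnnt2 with Tnni1 and nothing else was found in 17 cells, Actc1 with Tnni1 in 15, and all 3 together in 6.

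By series, at least 1 member was detected in 25, 18, 13, 33, 24, 21 and 35 cells from series 1 to 7. Cells with 3 or more numbered 1, 1, 0, 1, 2, 1 and 5, so that 5 of the 11 lay in series 7. At least 1 of the 6 rare members was detected in 27 cells, 9 of them in series 7 and 7 in series 2. Of these 27 cells, 14 also held Tnnt2, Actc1 or Tnni1, and 2 held more than 1 rare member. At least 1 member of any kind was in 169 of 292 cells (57.9%), most of which held Tnnt2, Actc1 or Tnni1. The 14 of 27 were thus close to the share over all cells.

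**Figure D3:**
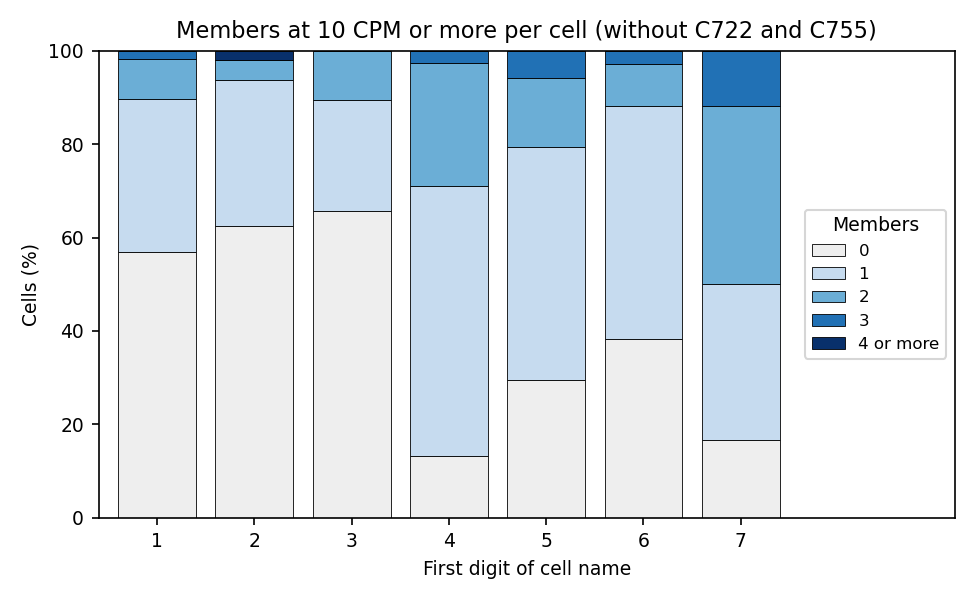
Share of cells, in percent, by number of members at 10 CPM or more and by first digit of the cell name, without C722 and C755. Bars stack to 100%; cells with 3 members (dark) are most frequent in series 7, and C205 in series 2 is the one cell with 4 or more.

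C205 of series 2 came closest to C722 and C755 in the number of members, with 5 of 9. It held Tnnt2 at 223.3 CPM, Actc1 at 215.9, Myh6 at 73.2, Tnni3 at 47.3 and Myh7 at 25.9. Tnni1 was 8.13 CPM and Ttn 2.96 CPM, both under the level of detection, and Myl7 and Nppa had no read. Its summed level over the list of other sarcomere genes, which includes the widespread Tpm1, was 1244 CPM, against a median of 448.5 in the 292 cells. Over the list of heart muscle genes outside the sarcomere it was 267.6 CPM, against a median of 284.9. The mesenchyme genes Postn and Col3a1 stood at 2908 and 2129 CPM, against medians of 2999 and 2881 in the 292 cells. C205 had 1352700 reads, near the median depth. C626 of series 6 held Myh7 at 508.1 CPM and Myh6 at 146.4 CPM and no read of the other 7 members, and it had 2196 genes with a read.

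Pairs of members were compared with the product of their shares within each name series, summed over series. Of 36 pairs, 11 had a product of at least 1 cell, and 3 of these were found together in more cells than the product. This count moved with the level of detection, to 15 of 20 pairs at 1 read or more and 5 of 5 at 100 CPM or more, and it was 5 of 11 with all cells as 1 stratum. Tnnt2 and Tnni1 were together in 23 cells against a product of 15.2. The observed share of 7.88% had an interval of 5.06% to 11.6%, which contains the product of 5.19%. The excess was in the same direction in 7 of 7 series. It ran from 1 cell against 0.417 in series 2 to 7 against 5.71 in series 7. Over 8827 genes, however, 69.2% were found with Tnnt2 in more cells than the product, 60.8% with Actc1 and 80.7% with Tnni1. An excess was therefore usual for any of these genes. Tnnt2 and Actc1 were together in 10 cells against 7.38, and Tnni1 and Ttn in 4 against 2.66. Each interval contained the product.

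Actc1 and Tnni1, the pair with the most cells together, matched the product, with 25 cells against 25.0. Myl7 and Tnni1 were together in 6 cells against 6.25. Actc1 and Myl7 shared 1 cell against 3.13, and Tnnt2 and Myl7 shared 0 of 292, which by the limit of 3 cells in 292 allows a share of up to 1.03%, against a product of 0.618%. Of the 25 pairs whose product was under 1 cell, 8 were found together in at least 1 cell. In all, 18 pairs were found together in no cell.

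Rank correlation (Spearman) of log2(CPM + 1) within a name series, whose cells differed widely in depth, was low for the common pairs. Its median over 7 series was 0.22 for Tnnt2 with Tnni1 (0.11 to 0.39), 0.22 for Tnnt2 with Actc1 and 0.12 for Actc1 with Tnni1. The counts are sparse, these values are small and none was tested. Over 8827 genes the median correlation with Tnnt2 was 0.01 and the 95th percentile 0.15, which both values for Tnnt2 exceeded. The value for Actc1 with Tnni1 lay under the 95th percentile of either gene, 0.16.

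**Figure D4:**
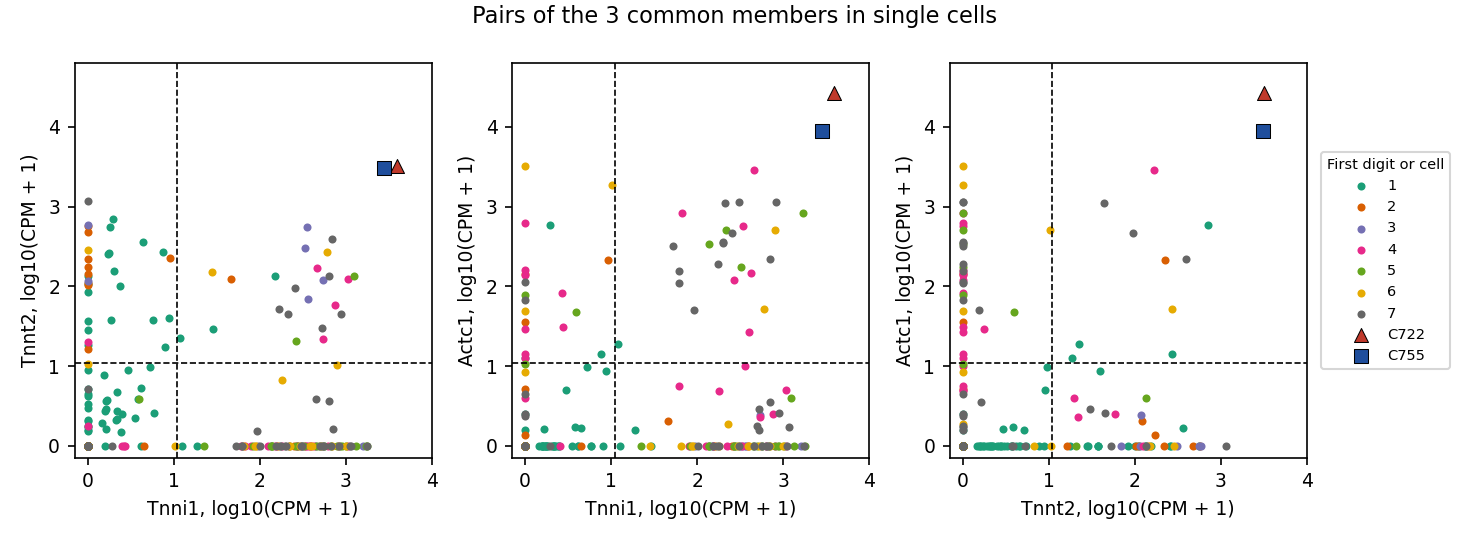
Levels of the 3 common members against each other in single cells, as log10(CPM + 1), coloured by first digit of the cell name, with C722 as a triangle and C755 as a square. Dashed lines mark 10 CPM; of 292 cells, 23 lie in the upper right of the Tnni1 and Tnnt2 panel, 25 in that of Tnni1 and Actc1 and 10 in that of Tnnt2 and Actc1.

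The genes whose level was most like that of a common member were named by the highest median correlation over series, with the same sign in each series that gave a value. For Actc1 these were Myl9 (0.29), Olfml2b (0.26), Ogn (0.26, 6 series), Gm5141 (0.25) and Mylk (0.25, 5 series). Myl9 and Mylk encode the light chain of smooth muscle myosin and the kinase that activates it. For Tnni1 they were Spint2 (0.39), Fabp3 (0.35), S100a1 (0.34), Robo2 (0.30) and Mtfmt (0.26). Fabp3 encodes the fatty acid binding protein of heart muscle, and S100a1 a calcium-binding protein abundant there. For Tnnt2 they were 9430020K01Rik (0.30), Osbpl8 (0.24), Atp6v0e (0.22), Txlna (0.22) and Actc1 (0.22). Other heart muscle genes outside the sarcomere did not follow Tnni1 as Fabp3 did, with medians of 0.08 for Corin, 0.04 for Slc8a1 and -0.09 for Atp2a2.

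At the low end, Hey2, a Notch target that acts as a repressor, had a median correlation of -0.29 with Tnni1, and Dpy19l1 had -0.18. The histone genes Hist1h2bg and Hist1h2bc both had -0.21 with Tnnt2, and Golt1b and Itm2c had -0.17 with Actc1. The highest medians over all genes were 0.34 for Tnnt2, 0.30 for Actc1 and 0.39 for Tnni1.

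Smooth muscle and mesenchyme genes were counted in the cells that held a common member. Of 13 smooth muscle genes, 11 were detected together with Tnnt2 in more cells than the product, 11 with Actc1 and 9 with Tnni1. Over 8827 genes the share above the product was 69.2% with Tnnt2, 60.8% with Actc1 and 80.7% with Tnni1, so that the count with Tnni1 was no higher than for genes at large. Of 12 mesenchyme genes, the numbers were 6, 5 and 8, and the median mesenchyme gene was detected in 84.4% of all 292 cells against 33.2% for smooth muscle. Of 4 heart muscle genes outside the sarcomere the numbers were 4, 4 and 3, and of 4 other sarcomere genes 3 with each. These lists are short, and no difference between lists was tested. Among 41 genes of 5 lists compared with each member, the product lay outside the interval of the observed share for 4 genes with Tnnt2, 0 with Actc1 and 1 with Tnni1, each with more cells than the product. Over 8827 genes such an excess was found in 1.06% with Tnnt2, 0.555% with Actc1 and 0.329% with Tnni1. Widespread genes could not show it. Even full overlap has a lower limit of 14.5% for Tnnt2, 11.8% for Actc1 and 31.1% for Tnni1. The product with Tnnt2 was above that limit for most mesenchyme genes, such as Postn at 18.5%, and for some smooth muscle genes. These counts therefore do not compare the lists.

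With Tnnt2 the 4 genes were Cnn1, Myh11, Mylk and Tnnc1. Cnn1, which encodes calponin of smooth muscle, was detected in 35 of the 55 Tnnt2 cells against a product of 23.8. Myh11, which encodes a myosin heavy chain of smooth muscle, was in 19 against 10.2, and Mylk in 20 against 11.2. Tnnc1, the cardiac and slow troponin C that completes the troponin complex, was detected in 15 against 7.78. Both checks of these genes were chosen after the data were seen. Without series 1 the values were 19 against 13.7 for Cnn1, 7 against 2.59 for Myh11, 10 against 3.62 for Mylk and 7 against 3.43 for Tnnc1. At 100 CPM for both genes they were 13 against 7.76, 9 against 2.996, 7 against 3.20 and 4 against 1.88. Without series 1 the interval contained the product for Cnn1 and Tnnc1 but not for Myh11 and Mylk, and at 100 CPM it contained the product for all but Myh11.

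With Tnni1 the gene was Fabp3, found in 67 of the 107 Tnni1 cells against a product of 52.7, and in 66 against 51.7 without series 1. For Actc1 the largest differences in cells among the listed genes were those of Cnn1, Acta2 and Myl9. Acta2 was detected in 34 of 46 Actc1 cells against 26.9, Myl9 in 41 against 33.6 and Cnn1 in 31 against 23.6. Each interval contained the product. A difference in cells favours frequent genes. Relative to the product, rarer listed genes stood higher, such as Mylk in 6 against 2.80 and Corin in 12 against 6.82. Myh11 was in 3 Actc1 cells against 2.41. Series 4 and 7, in which Actc1 was most frequent, had 0 and 1 cells with Myh11.

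High levels occurred in cells with and without smooth muscle genes. Of the 6 cells with Actc1 at 1000 CPM or more, 3 held Acta2 at 100 CPM or more, and all 6 held Postn at that level. C674, the highest, had Acta2 at 5843 CPM and no Tnnt2 or Tnni1 read, while C655 with Actc1 at 1858 CPM had no read of Acta2, Tagln or Myl9. Of the 11 cells with Tnni1 at 1000 CPM or more, 4 held Acta2 and 10 held Postn at 100 CPM or more. Of the 6 cells with Tnnt2 at 500 CPM or more, 3 held Acta2 and 4 held Postn at that level.

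Other sarcomere genes were mostly rare. Of 31 listed genes, 27 were in the table. Of these, 4 reached 10 CPM in at least 10% of the 292 cells, against 58.4% of all genes. The 4 were Tpm1 in 92.8% of cells, Myom1 in 11.6%, Tnnc1 in 10.96% and Des in 10.3%. Tpm1, a tropomyosin, is made in many cell types, Myom1 encodes the M-band protein myomesin and Des the intermediate filament desmin. The median gene of this list was detected in 2.05% of cells. Of the 27 genes, 18 reached 10 CPM in both C722 and C755, which had a read of 6631 and 6547 of all 15124 genes. In both cells 7 of the 27 were higher than in every other cell, against 0.212% of all genes. Among the 7 were Myl2, Myl3, Myl4 and Csrp3. Summed over the list, C722 held 27847 CPM and C755 29318 CPM, against a median of 448.5 and a highest sum of 5752 in the others. In the others the sum was largely Tpm1, which had a median of 391.4 CPM. Tpm1 was 4582 CPM in C212, the cell with the highest sum.

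Few genes of heart muscle outside the sarcomere were common in the 292 cells. Of 20 listed, 15 were in the table. Of these, 4 reached 10 CPM in at least 10% of cells, against 58.4% of all genes. The 4 were Atp2a2 in 63.7%, Fabp3 in 36.3%, Slc8a1 in 32.9% and Corin in 14.7%. Atp2a2 encodes the calcium pump of the sarcoplasmic reticulum, Slc8a1 the sodium and calcium exchanger and Corin the protease that activates the natriuretic peptide made from Nppa. Corin was detected in 43 cells although Nppa was in 2, and C722 and C755 had no Corin read. The median gene of this list was detected in 2.74% of cells. Summed levels were 4185 CPM in C722 and 4285 CPM in C755, above the highest sum of 3005 CPM among the others.

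Transcription regulators of heart muscle were found outside the 2 cells about as often as genes at large. Of 13 in the table, 8 reached 10 CPM in at least 10% of the 292 cells, near the 58.4% of all genes, led by Tbx20 in 89.7%, Gata6 in 86.6%, Mef2a in 64.0% and Gata4 in 55.5%. Hand2 was in 47.9%, Mef2c in 46.6%, Srf in 24.7% and Myocd in 10.6%. The other genes of the list were in 1.37% to 8.22% of cells. The summed level over the list was 1844 CPM in C722 and 1437 CPM in C755. Both lay within the range of the 292 cells, which had a median of 1550. Tbx20 alone had a mean of 1134 CPM in the 292 cells. Hopx, a homeodomain gene of heart muscle development, went the other way, at 347.6 CPM in C722 and 454.1 CPM in C755, each above 291 of 292 cells. Nkx2-5, a homeobox gene of heart muscle, was 43.2 CPM and 111.6 CPM in the 2 cells and was detected in 4 others (1.37%).

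Markers of other cell types were checked in C722 and C755. Of the mesenchyme list of 12 genes, summed levels were 4523 and 3291 CPM, against 1984 to 101076 CPM in the others with a median of 16325, and 12 and 8 of 292 cells lay lower. Smooth muscle genes summed to 5898 and 2069 CPM, against a median of 2145, with Myh11, Mylk and Smtn at 0 in both. The 3 endothelial and 5 glial markers in the table were at 0 in both cells. Of the neuronal markers, C755 held 0.542 CPM in sum and C722 none, and of the epicardial ones Wt1 was at 0 in both while Tbx18 was 327.6 CPM in C722 and 9.75 CPM in C755. No blood marker of the list was in the table. Of the 10 cardiomyocyte markers, 7 are members and so were used to set these cells apart. The other 3, Actn2, Ryr2 and Nkx2-5, were also at 10 CPM or more in both. Actn2, the actinin of the Z-disc, was 873.7 CPM in C722 and 221.6 CPM in C755, and Ryr2, the calcium release channel, was 107.3 and 88.9 CPM. Other cells held Actn2 at up to 489.7 CPM and Ryr2 at up to 420.7 CPM, so both genes overlapped with the rest.

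**Figure D5:**
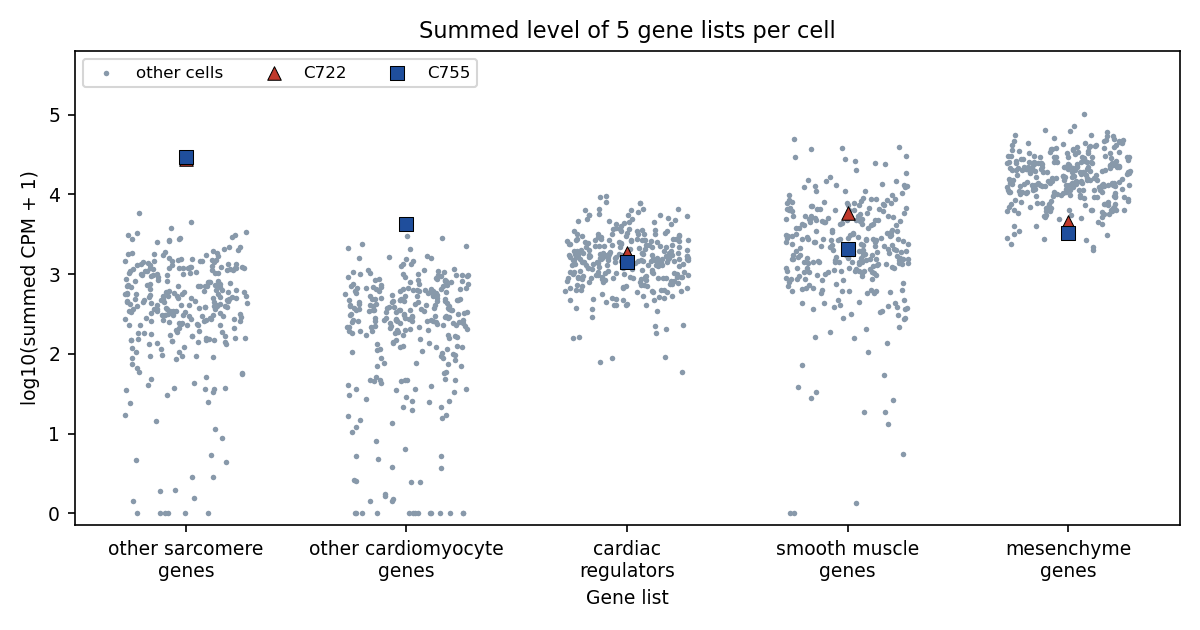
Summed level of 5 gene lists in each cell, as log10(summed CPM + 1), with 1 grey point per cell for 292 cells, a triangle for C722 and a square for C755. The 2 cells lie above all others for the other sarcomere and cardiomyocyte genes, inside the range for regulators and smooth muscle genes, and near the lower end for mesenchyme genes. The other sarcomere genes include Tpm1, which 92.8% of the 292 cells held.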

How the data were processed

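RNA of 294 single EYFP-positive cells was measured by full-length cDNA (SMARTer v4, Nextera XT) and paired sequencing on an Illumina HiSeq, per the labels' protocols. The authors deposited raw counts, whole numbers of reads per gene, for 15124 genes, and a second table whose values were treated as a score, since they are whole numbers with totals of 1110845 to 1216916 per cell. The score table held 14051 genes, 8 of the 9 members among them, and not Nppa. HISAT2 2.1.0, featureCounts, Seurat and mm10 are named, with no role, per the submitters' processing notes. The annotation and the use of strand in counting are not given in the sources used here.

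Each column carries a cell name that matched 1 sample, and 0 columns were left over. Counts were scaled to CPM, with no cell and no gene removed. Every cell imaged as single was kept and no doublet caller was run, since the labels state that only single captures went forward. All cells formed 1 group, so no test was made and no p-value is given. Shares carry exact Clopper-Pearson 95% intervals. Co-detection was set against the product of shares within each name series, summed over series. Correlations are Spearman's, within series, over genes that 10% of cells or more held at 10 CPM. The text names the members, genes of lists that reach that share or check the 2 cells, and the 5 highest and 2 lowest correlated genes of each common member. Cells are named where they hold 4 or more members, and other cells were chosen after their values were seen. Members and lists were chosen with earlier results of these data known.

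Gene positions, exon lengths and shared windows come from GENCODE M21 on GRCm38, in which 14554 gene names (96.2%) were found, and promoters from RefSeq on GRCm38.p6. Python 3.11.15, numpy 2.4.6, pandas 2.3.3, SciPy 1.17.1 and matplotlib 3.10.9 were used. The scripts were tested on simulated data. Alternatives were other levels of detection, the score table scaled to 1000000 per cell, thinning to 286313 reads, cells with 4000 genes or more, each series left out, and C722 and C755 included. Depth per cell was 34046 to 3033857 reads, and at the lowest depth 1 read is already over 10 CPM. Of the 238 detections of members, 7 rested on fewer than 3 reads.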

Additional observations from a re-analysis of the deposited data

How the results depend on the processing

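The share of the 292 cells with Tnnt2, 18.8% at 10 CPM, was 32.9% at 1 read or more, 26.03% at 3 reads or more, 11.3% at 100 CPM or more and 24.0% when cells with under 4000 genes were left out. That of Actc1, 15.8%, was 27.1% at 1 read or more and 10.3% at 100 CPM or more. Cells with 3 or more members, 3.77%, were 14.04% at 1 read or more and 1.03% at 100 CPM or more. These follow from the level that counts as detection, except the change with cells under 4000 genes left out. That step kept every cell of series 1, where Tnnt2 was detected in 36.2% of cells, and the cause of the change was not tested. In the score table these shares were identical to the main ones, so that table gave no separate check. After thinning and with C722 and C755 included, the shares moved by less than their interval. With each series left out in turn, they ran from 14.5% to 20.5%, 12.6% to 18.1% and 2.40% to 4.33%. Pairs found together above the product, 3 of 11, were 15 of 20 at 1 read or more, 5 of 5 at 100 CPM or more, 5 of 11 with all cells as 1 stratum and 14 of 17 with C722 and C755 included, which hold nearly all members themselves. Without series 1 they were 3 of 10. For the other 7 members, 84 of 97 alternative shares lay within the interval. These include the unchanged shares of the score table and subsets of the same cells, and the intervals of rare members are wide. Without series 7, Myl7 was in 1.20% of cells, and without series 2, Nppa in 0. Without series 1, Tnni1 was in 43.6%, and without series 7 in 30.8%. No paired analysis was possible because all cells form 1 group and no test was made. With stage, animal and chip not given per cell, differences between name series cannot be told apart from differences in these.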
